A study of Homo sapiens with 6 samples.

Results

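The RNA exosome is the protein complex that trims and degrades RNA from its 3′ end in the nucleus and the cytoplasm. Its core is a barrel of RNase PH-like subunits (among them EXOSC4, EXOSC5, EXOSC7, EXOSC8 and EXOSC9) capped by RNA-binding subunits (EXOSC1, EXOSC2 and EXOSC3), and the RNase activity comes from the attached enzymes DIS3 and EXOSC10. The barrel itself guides RNA to DIS3, and the complex matures ribosomal RNA and removes faulty or short-lived transcripts. The introns of 10 of these genes were followed here after knockdown of ZRSR2, a protein of the minor spliceosome that helps to recognise the 3′ end of U12-type introns. All listed introns whose interval lay inside one of the genes on its strand were taken. This gave 99 of the 241593 listed introns. Within the genes no measured value was used, but the genes themselves were chosen with earlier results of these data known. EXOSC6, a further barrel subunit, was not analysed here.

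The cells were K562, an established human leukaemia line with erythroid features, and every library came from cells that had received an shRNA. The groups were sh1 and sh2, which carried different shRNAs against ZRSR2, and Con_sh, which carried a control shRNA, with 2 libraries each numbered by experiment (1 and 2). PolyA-selected RNA was sequenced, and the tables gave for each intron the reads that cross each of its boundaries, the spliced reads, the covered part of its length and the retention in percent, for which a spliced read weighs as much as 2 boundary reads (100 × boundary / (boundary + 2 × spliced)). Whether the 2 libraries of a group stem from separate cultures is not in the labels, so the p-values rest on the spread between these libraries, which may be technical. For introns that spread was pooled over the tested introns. The p-value of an intron therefore does not measure how far its own libraries lay apart. ZRSR2 itself had 10.8 and 10.9 CPM (its summed spliced reads, scaled to library size) in the sh1 libraries, 10.5 and 13.0 in sh2, and 28.4 and 23.9 in Con_sh, a log2 fold change of -1.21 (SE 0.174; adjusted p = 0.571 by edgeR and 1.79e-06 by DESeq2). Spliced reads totalled 82986327 and 100088332 in sh1, 86435477 and 87795039 in sh2, and 86235725 and 101120454 in Con_sh. The 10 erythroid markers summed to 5909 to 12055 CPM in sh1, 9318 to 20267 in sh2 and 4701 to 6445 in Con_sh, with no overlap between sh2 and Con_sh. The 4 myeloid markers summed to 30.9 to 46.2 CPM in sh1, 15.6 to 29.5 in sh2 and 51.4 to 78.5 in Con_sh, so all knockdown libraries lay below both controls. Lymphoid markers summed to 139 to 218 CPM in sh1, 111 to 180 in sh2 and 109 to 139 in Con_sh, and epithelial or stromal ones to 606 to 635 in sh1, 329 to 490 in sh2 and 486 to 839 in Con_sh. No marker of these lists was at 0 in all libraries. The part of these markers in the results below was not tested.

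After ZRSR2 knockdown, 2 neighbouring introns of EXOSC2 were more retained. An intron of EXOSC1 was also called more retained, but DESeq2 did not call it. Both genes belong to the RNA-binding cap, while EXOSC3 of the same cap had no called intron. These calls were 3 out of 99 introns, all of them more retained, and 0 were less retained. They came from edgeR's quasi-likelihood test over both shRNAs at a Benjamini-Hochberg adjusted p of 0.05. Across all 134078 tested introns 0.33% were called more retained and 0.0209% less retained. An unadjusted p under 0.05 was reached by 16 of the 99 introns, against 5950 of all 134078 tested ones. The exosome introns were read deeply, with 92.3 to 2448 boundary plus spliced reads on average, and all 99 passed the minimum of 20.

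EXOSC2 encodes a cap subunit that binds RNA at the entrance of the barrel. The fifth of its listed introns that do not overlap (chromosome 9, GRCh38 positions, plus strand), the 1472 nt directly before the exon 130700867 to 130700935, had a retention of 55.6% and 35.4% in the sh1 libraries, 52.3% and 38.3% in the sh2 libraries, and 14.7% and 11.4% in the Con_sh libraries. All 4 knockdown libraries lay above both control libraries, and within each group, Con_sh included, the experiment 1 library was the higher one. The means were 45.5% ± 14.3 in sh1, 45.3% ± 9.87 in sh2 and 13.1% ± 2.38 in Con_sh (SD, n = 2 each). The ratio of boundary to spliced reads rose 5.53-fold over both shRNAs (log2 fold change 2.47, SE 0.363), at an adjusted p of 1.49e-08 by edgeR, and it was called in each of the 6 fits that left out 1 library. Such a fit leaves 1 library in a group, which is then assumed to vary like the libraries of the other groups. The 69 nt exon that follows leads to the second called intron.

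That next intron, at chromosome 9, 130700936 to 130702133 (1198 nt), was the most retained one of EXOSC2 and was retained even in control cells. It stood at 52.6% and 39.9% in sh1, 54.7% and 43.8% in sh2, and 23.2% and 18.9% in Con_sh, so the groups did not overlap. Over both shRNAs its log2 fold change was 1.78 (edgeR adjusted p = 4.35e-04, SE 0.363). Without the replicate 2 library of Con_sh this call was lost (edgeR adjusted p = 0.252, log2 fold change 1.59).

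**Figure D1:**
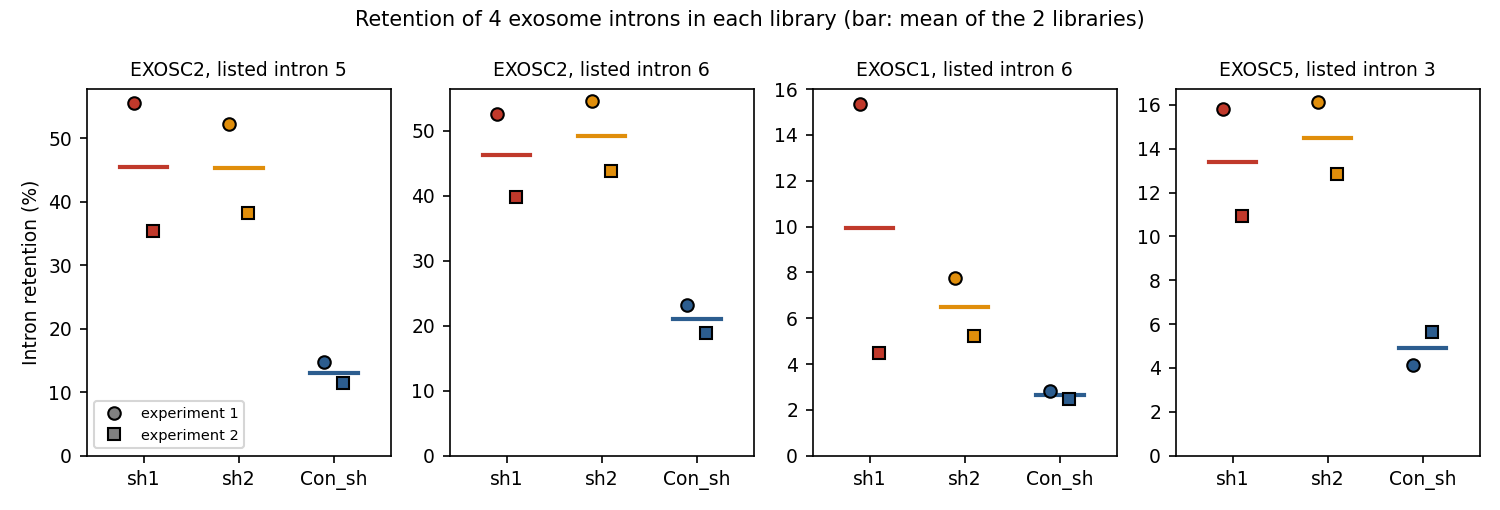
Retention (%) of 4 introns in each library, with circles for experiment 1, squares for experiment 2 and a bar for the mean of the 2 libraries of a group; introns are numbered from the 5′ end among listed introns that do not overlap. In EXOSC2 the sh1 and sh2 libraries lie between 35.4% and 55.6%, and the Con_sh libraries lie between 11.4% and 23.2%.

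The gain in EXOSC2 came with more boundary reads and fewer spliced reads at the same place. At the first of the 2 introns, boundary reads numbered 886 and 733 in sh1, 959 and 751 in sh2, and 255 and 269 in Con_sh. Its spliced reads numbered 354 and 669 in sh1, 438 and 605 in sh2, and 737 and 1047 in Con_sh. Both ends of the intron moved alike. Reads at the upstream boundary alone gave a log2 fold change of 2.47 (SE 0.449, edgeR adjusted p = 4.71e-05), and those at the downstream boundary alone 2.47 (SE 0.439, edgeR adjusted p = 2.69e-05). Reads covered 100% of the intron in every library. Relative to the median of the 6 EXOSC2 introns that do not overlap and were not called, its spliced reads came to 45.8% and 68.2% in sh1, 53.5% and 74.2% in sh2, and 89.4% and 96.4% in Con_sh. For the second intron these shares were 47.6% and 56.0% in sh1, 47.8% and 60.3% in sh2, and 64.1% and 70.4% in Con_sh. At both introns these shares were lower in all 4 knockdown libraries than in either control library. The raw spliced reads of the second intron did overlap, with 368 and 549 in sh1, 391 and 492 in sh2, and 528 and 764 in Con_sh.

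The remaining introns of EXOSC2 changed less and passed no test. The intron 130695594 to 130697581 read 7.90% and 6.56% in sh1, 7.59% and 6.18% in sh2, and 3.75% and 4.46% in Con_sh. The groups did not overlap, and the log2 fold change was 0.82 (edgeR adjusted p = 0.992, SE 0.372). Its reads were mostly at the upstream boundary, with 65 to 155 there and 5 to 21 at the downstream one. The intron nearest the 5′ end, 130693914 to 130695491, was at 1.27% and 1.16% in sh1, 0.947% and 1.44% in sh2, and 0.857% and 1.55% in Con_sh, with overlapping groups. The intron directly downstream of the called pair, 130702311 to 130703052, was at 5.40% and 2.86% in sh1, 3.19% and 2.88% in sh2, and 2.15% and 2.45% in Con_sh.

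**Figure D2:**
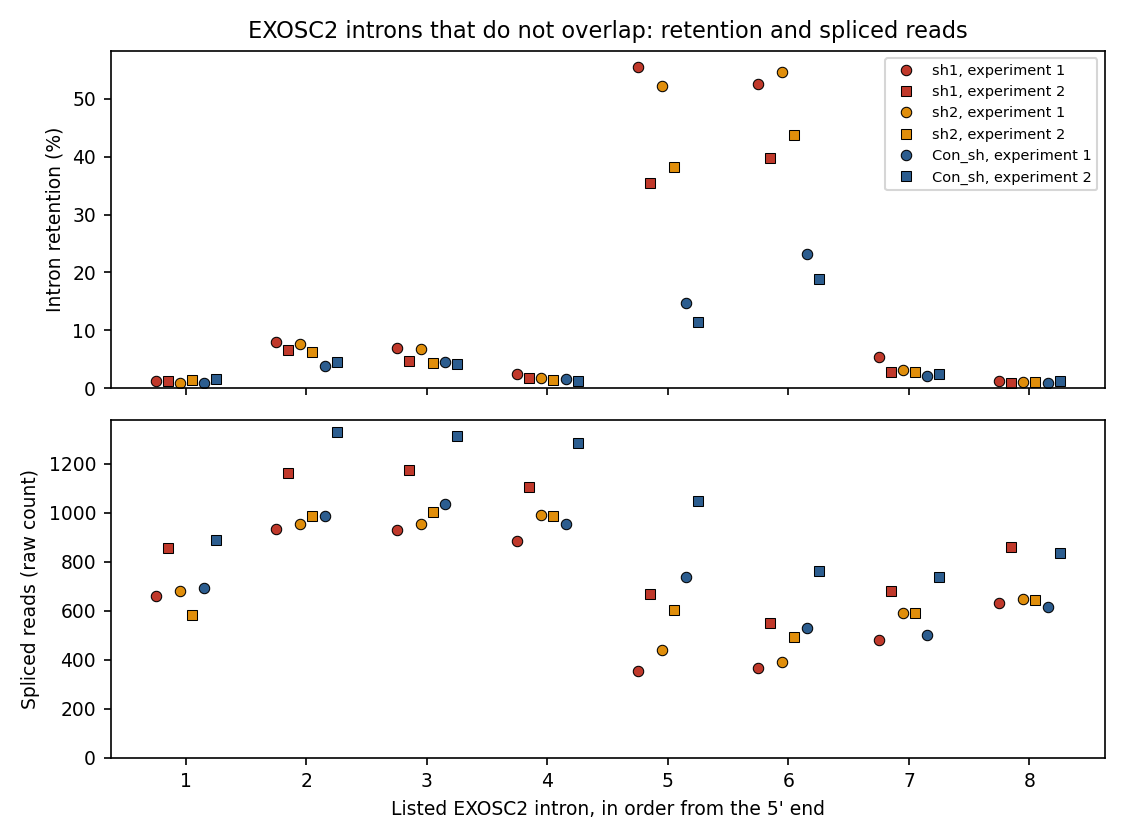
Retention (%, upper panel) and raw spliced reads (lower panel) of the 8 listed EXOSC2 introns that do not overlap, in order from the 5′ end, for each library. The fifth and the sixth introns stand above the others in retention in every library, and they have fewer spliced reads than introns 2 to 4 in every library.

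Set beside all other introns with a mean of at least 50 reads, the first called EXOSC2 intron was most like an intron of VPS16, a protein of endosome and lysosome tethering, at chromosome 20, 2862935 to 2863064. The mean absolute difference in retention over the 6 libraries was 2.58 percentage points there. MAPK12, a p38 kinase, followed at 2.83 points (chromosome 22, 50255695 to 50255809), with 52.4% and 36.8% in sh1, 48.5% and 43.2% in sh2, and 16.9% and 13.1% in Con_sh. The next ones lay in ZDHHC13 (3.01 points), TMEM80 (3.42 points) and CCDC43 (3.58 points). Over both shRNAs the introns of VPS16 (edgeR adjusted p = 1.69e-05), MAPK12 (1.54e-06) and CCDC43 (9.14e-10) were called, and those of ZDHHC13 (0.135) and TMEM80 (0.0905) were not. They were picked for likeness over the same libraries, so their values are a description.

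EXOSC1 is the cap subunit known in yeast as Csl4. Its called intron, at chromosome 10, 97437276 to 97437699 (minus strand, 424 nt), was retained at 15.4% and 4.495% in sh1, 7.74% and 5.23% in sh2, and 2.83% and 2.46% in Con_sh. The 4 knockdown libraries lay above both controls, and replicate 1 of sh1 stood far above its partner. The means were 9.93% ± 7.68 in sh1, 6.48% ± 1.78 in sh2 and 2.64% ± 0.265 in Con_sh (SD, n = 2 each). Its log2 fold change was 1.56 (SE 0.408), with edgeR giving an adjusted p of 0.037. The call was lost without replicate 1 of sh1 (edgeR adjusted p = 1, log2 fold change 1.06), replicate 1 of sh2 (0.394), replicate 1 of Con_sh (0.376) or replicate 2 of Con_sh (0.74), and also by DESeq2 (adjusted p = 1). It held in 3 of 16 alternatives. With the experiment number as a block the edgeR adjusted p was 4.01e-04.

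Spliced reads at the EXOSC1 intron were close in number to those at the rest of the gene in every group. They came to 95.9% and 106% of the median of the other EXOSC1 introns in sh1, 104% and 110% in sh2, and 98.6% and 108% in Con_sh. Boundary reads numbered 180 and 77 in sh1, 114 and 87 in sh2, and 50 and 47 in Con_sh. The intron overlaps a longer listed one that skips a 51 nt exon, 97437700 to 97437750. Spliced reads of the longer intron numbered 365 and 569 in sh1, 468 and 582 in sh2, and 614 and 630 in Con_sh. They also count for the called intron, so the closeness above does not measure splicing of the called intron alone. Reads joining over that exon made up 72.8% and 70.7% of the mean spliced reads of its flanking introns in sh1, 70.6% and 73.1% in sh2, and 70.9% and 69.8% in Con_sh, so most spliced EXOSC1 reads left the exon out in all groups. The next intron upstream that does not overlap, 97437751 to 97438669, was at 8.40% and 5.32% in sh1, 6.10% and 4.68% in sh2, and 4.42% and 4.34% in Con_sh, without overlap between knockdown and control (log2 fold change 0.47, edgeR adjusted p = 1, SE 0.397). The one before it, 97438704 to 97441170, was at 3.91% and 1.14% in sh1, 2.11% and 1.57% in sh2, and 0.478% and 0.925% in Con_sh. It was not called (log2 fold change 1.56, edgeR adjusted p = 0.242, SE 0.487). Introns of EXOSC1 that share an end also share its boundary reads, and 7 of the 10 do not overlap. All 10 had a log2 fold change above 0 over both shRNAs, which are therefore not 10 separate results. The most retained one, the rarely used long intron 97436552 to 97438669, was retained at 62.7% to 84.6% in the knockdowns and 69.9% to 73.6% in the controls.

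EXOSC3, the remaining cap subunit of the list, had 4 introns and no call. The intron 37780881 to 37781985 on chromosome 9 was at 1.63% and 1.19% in sh1, 1.94% and 1.27% in sh2, and 0.535% and 1.01% in Con_sh. Its log2 fold change was 0.97 (edgeR adjusted p = 0.824, SE 0.394). The longer intron that shares its 3′ end, 37780881 to 37783913, skips a 152 nt exon and was retained at 10.9% and 6.03% in sh1, 13.8% and 11.3% in sh2, and 7.43% and 5.64% in Con_sh.

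Among the barrel subunits, EXOSC5, whose human form has an RNase PH fold without activity of its own, had the highest median log2 fold change of retention of all 10 genes. Its intron at chromosome 19, 41389906 to 41391840 (minus strand, 1935 nt), was at 15.8% and 10.9% in sh1, 16.1% and 12.9% in sh2, and 4.14% and 5.65% in Con_sh, with no overlap between knockdown and control. Its log2 fold change of 1.63 (SE 0.455) did not pass the threshold (edgeR adjusted p = 0.0851). With the experiment number as a block, since the numbers pair the libraries, it was called (log2 fold change 1.62, SE 0.367, edgeR adjusted p = 0.0028). The block brought the called exosome introns from 3 to 5, at 0.447% called more retained over all tested introns. All 6 EXOSC5 introns, of which 5 do not overlap, had a log2 fold change above 0, with a median of 1.15. An unadjusted p under 0.05 by edgeR was reached by 4 of these 6, against 5950 of all 134078 tested introns.

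Boundary reads at this EXOSC5 intron numbered 73 and 100 in sh1, 50 and 88 in sh2, and 51 and 84 in Con_sh, with overlapping groups and with 3 of the 4 knockdown libraries above the control of the same experiment. Its spliced reads numbered 194 and 408 in sh1, 130 and 298 in sh2, and 590 and 701 in Con_sh. Relative to the median of the other EXOSC5 introns, those spliced reads stood at 60.0% and 68.2% in sh1, 60.0% and 66.6% in sh2, and 67.7% and 72.6% in Con_sh. The ends gave unlike values, though their difference was not tested. Reads at the 5′ end of the intron, which is the boundary at the higher coordinate in this minus-strand gene, gave a log2 fold change of 2.57 (SE 0.6, edgeR adjusted p = 0.0104), and those at the 3′ end 1.10 (SE 0.545, edgeR adjusted p = 1).

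The other barrel subunits held no called intron in the fit without the block. EXOSC9, which has the same kind of fold, held the other intron that was called with the block alone. Its intron at chromosome 4, 121807623 to 121809966, was at 1.04% and 0.722% in sh1, 1.13% and 0.896% in sh2, and 0.136% and 0.311% in Con_sh (log2 fold change 2.01, SE 0.552, edgeR adjusted p = 0.0721; 0.0204 with the block). These values rest on 17 to 19 boundary reads a library in the knockdowns and on 3 and 9 in Con_sh. Its most retained intron, 121816195 to 121816368, ran from 13.2% to 16.3% in the knockdowns and from 12.8% to 13.4% in Con_sh. In EXOSC8 the most retained intron, 37003008 to 37004515 on chromosome 13, stood at 12.5% and 8.14% in sh1, 15.4% and 11.5% in sh2, and 9.25% and 7.68% in Con_sh, with overlapping groups (edgeR adjusted p = 1). Another EXOSC8 intron, 37002310 to 37002487, had the lowest unadjusted p of its gene, at 2.07% and 1.24% in sh1, 2.22% and 1.14% in sh2, and 1.12% and 0.762% in Con_sh (edgeR adjusted p = 1).

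EXOSC7 and EXOSC4 had no call either. The most retained EXOSC7 intron, 45001609 to 45005290 on chromosome 3, was at 3.80% and 2.603% in sh1, 8.72% and 4.62% in sh2, and 3.16% and 2.51% in Con_sh (log2 fold change 0.70, SE 0.39, edgeR adjusted p = 1). EXOSC4 had a single listed intron of 92 nt on chromosome 8, 144080150 to 144080241, which also lies within a long non-coding RNA gene. It was at 4% and 3.89% in sh1, 1.85% and 3.63% in sh2, and 2.55% and 3.85% in Con_sh (log2 fold change 0.05, SE 0.38, edgeR adjusted p = 1).

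The enzymes of the complex had no called intron among 41. EXOSC10, the nuclear exonuclease known in yeast as Rrp6, had partly retained introns in all groups. The highest, 11076949 to 11077364 on chromosome 1, was at 17.2% and 10.9% in sh1, 26.0% and 13.75% in sh2, and 19.9% and 12.1% in Con_sh. Here too the experiment 1 library was the higher one in every group, control included, and the log2 fold change was 0.07 (SE 0.346, edgeR adjusted p = 1). In DIS3, the processive exonuclease and endonuclease of the complex, the highest was the rarely used intron 72778381 to 72781288 on chromosome 13, at 13.5% and 9.09% in sh1, 27.7% and 16.5% in sh2, and 18.8% and 20.5% in Con_sh. The introns of lowest unadjusted p, 11095882 to 11098019 in EXOSC10 and 72773822 to 72773945 in DIS3, had 0 boundary reads in both control libraries and at most 4 in any knockdown library. Of the 23 DIS3 introns, 10 had a log2 fold change above 0 over both shRNAs. The shRNAs differed in this count, with 10 of 23 above 0 with sh1 (median -0.39) and 18 of 23 with sh2 (median 0.62). All tested introns differed in the same direction, with 51.3% above 0 with sh1 (median 0.02) and 59.5% with sh2 (median 0.16). In sh1 against sh2, 3 of 23 DIS3 introns lay above 0 and 0 were called, where 41.7% of all tested introns lay above 0. Of the 18 EXOSC10 introns, 11 lay above 0 over both shRNAs, where 55.5% of all tested introns did, 7 with sh1 and 11 with sh2.

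**Figure D3:**
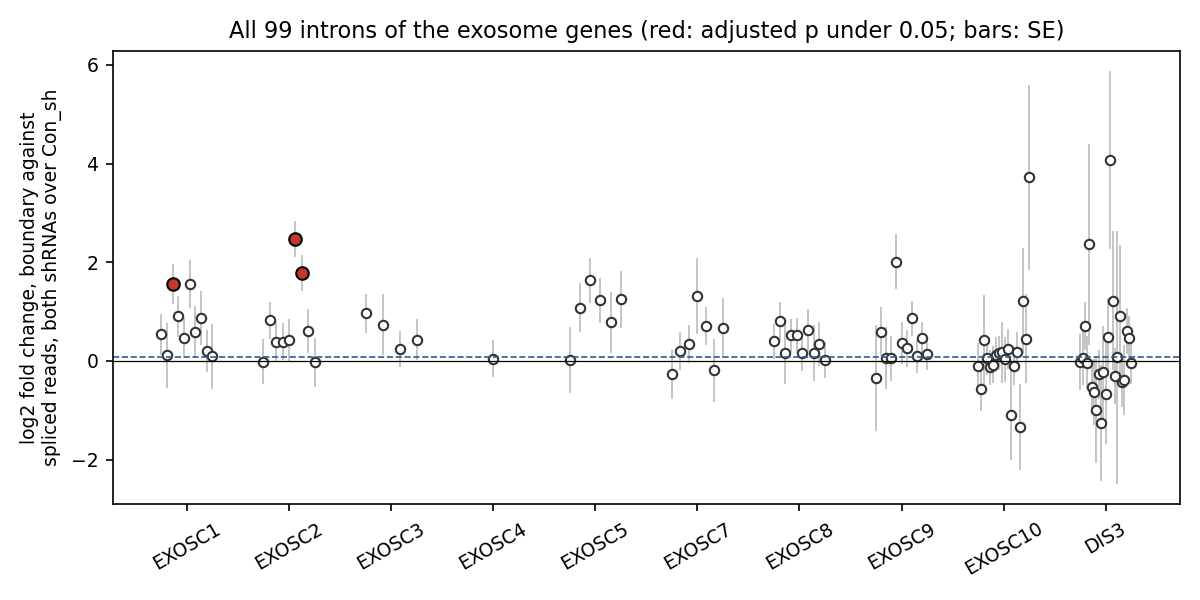
Change in boundary relative to spliced reads (log2 scale, both shRNAs over Con_sh) for each of the 99 introns, grouped by gene, with the SE as bars. The 3 called introns are red, the solid line marks 0 and the dashed line marks the median of all tested introns, 0.08.

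Over all 99 introns, the log2 fold change was above 0 in 74 (74.7%) with a median of 0.25. Over all tested introns it was above 0 in 55.5% with a median of 0.08. Listed introns that share an end share its boundary reads, so the counts in this paragraph hold some reads more than once. In 19 of the 99 every knockdown library lay above both controls, where 7.28% of all tested introns did. In 0 every knockdown library lay below, where 4.11% of all tested introns did. The 99 introns had a mean of 92.3 reads or more and all tested ones of 20 or more, and these shares were not matched for depth. The genes had also been chosen with earlier results of these data known. The median retention of the 99 introns was 2.02% and 1.24% in sh1, 2.13% and 1.72% in sh2, and 1.39% and 1.55% in Con_sh. For all tested introns it was 1.42% and 1.23% in sh1, 1.45% and 1.48% in sh2, and 1.19% and 1.34% in Con_sh. Mean retention over the 6 libraries was under 1% in 36 exosome introns, from 1% to 10% in 49 and above that in 14. Retention computed once from the summed boundary and spliced reads of all listed introns was higher in experiment 1 than in experiment 2 in each group, at 2.70% and 2.14% in sh1, 2.92% and 2.48% in sh2, and 2.51% and 2.29% in Con_sh, and its part in the higher values of experiment 1 was not tested.

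Taken separately, 3 exosome introns were called more retained with sh1, where 0.292% of all tested introns were, and 2 with sh2, where 0.266% were. None was called less retained with either, where 0.0104% (sh1) and 0.0201% (sh2) of all tested introns were. The first called EXOSC2 intron had a log2 fold change of 2.47 with sh1 (SE 0.419, edgeR adjusted p = 3.46e-06) and of 2.47 with sh2 (SE 0.417, edgeR adjusted p = 4.39e-06). Both shRNAs were set against the same control libraries. DESeq2 did not call this intron with sh2, and in the fit of introns covered to at least 0.95 it was called with neither shRNA alone. Without replicate 1 of sh1 the sh1 call was lost (log2 fold change 1.88, edgeR adjusted p = 0.129). Without replicate 1 of sh2 the sh2 call was lost (log2 fold change 2.06, edgeR adjusted p = 0.067). In both fits the tested shRNA is a single library whose spread comes from the other groups. The second called EXOSC2 intron had 1.70 with sh1 (SE 0.418, edgeR adjusted p = 0.019) and 1.87 with sh2 (SE 0.418, edgeR adjusted p = 0.00398). Its sh1 call was lost without replicate 1 of sh1 (1), replicate 1 of Con_sh (0.124) or replicate 2 of Con_sh (0.603), and its sh2 call without replicate 1 of sh2 (0.802) or replicate 2 of Con_sh (0.372), all edgeR adjusted p. The EXOSC1 intron had 1.80 with sh1 (SE 0.472, edgeR adjusted p = 0.0465), and 1.33 with sh2 (SE 0.465, edgeR adjusted p = 0.532). Of the 6 fits that left out 1 library, the sh1 call of this intron held in 1, that without replicate 2 of sh1. The test of sh1 against sh2 called none of the 99 introns in either direction, where 0.0246% of all tested introns were called more retained in sh1 and 0.0097% less. An unadjusted p under 0.05 was reached there by 8 of the 99, against 5129 of all 134078 tested introns. The difference between sh1 and sh2 was 0.00 on the log2 scale (SE 0.406) for the first called EXOSC2 intron and 0.47 (SE 0.459) for the EXOSC1 intron. The median of all tested introns lay at 0.02 with sh1 and at 0.16 with sh2.

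Every knockdown library of the called introns lay above both controls, so each had to lie above the control of its own experiment. The sizes of these differences are given as a description. In experiment 1 the retention of the first called EXOSC2 intron was 40.8 percentage points higher in sh1 than in Con_sh and 37.5 points higher in sh2. In experiment 2 it was 24.01 points higher in sh1 and 26.9 points higher in sh2. The second called EXOSC2 intron was 29.4 points (sh1) and 31.5 points (sh2) higher in experiment 1, and 21.0 points (sh1) and 24.95 points (sh2) higher in experiment 2. For EXOSC1 the gain was 12.5 points (sh1) and 4.91 points (sh2) in experiment 1, and 2.04 points (sh1) and 2.77 points (sh2) in experiment 2.

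The amount of spliced exosome RNA was read from the spliced reads summed over the introns of a gene that do not overlap. Per summed intron, a scale that allows genes to be set side by side, control cells had 23.0 ± 0.332 CPM of EXOSC3 (SD, n = 2), 19.4 ± 0.429 of EXOSC8, 18.7 ± 1.20 of EXOSC4 and 18.3 ± 1.69 of EXOSC9. EXOSC10 followed with 16.2 ± 0.812 and EXOSC7 with 15.9 ± 3.63. EXOSC5 had 10.6 ± 0.198, EXOSC2 10.5 ± 1.13 and EXOSC1 9.68 ± 1.08, and DIS3 was lowest at 5.99 ± 0.27. The library values of EXOSC8, EXOSC4 and EXOSC9 overlapped from one gene to the next, as did those of EXOSC10 and EXOSC7 and those of EXOSC5, EXOSC2 and EXOSC1. EXOSC3 lay above all others and DIS3 below all others.

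No exosome gene passed the edgeR test on these sums in any comparison, and 0.0% of all 17241 genes did, with 1420 genes at an unadjusted p under 0.05 over both shRNAs. The lowest value among the 10 genes was that of EXOSC5. Its sums were 20 and 32.0 CPM in sh1, 12.8 and 27.3 in sh2, and 53.7 and 52.3 in Con_sh, so every knockdown library lay below both controls, and in each shRNA the experiment 1 library was the lower one. The means were 26.0 ± 8.50 CPM in sh1 (49.1% of Con_sh), 20.05 ± 10.2 in sh2 (37.8%) and 53.0 ± 0.988 in Con_sh. Over both shRNAs the log2 fold change was -1.21 (SE 0.317; edgeR unadjusted p = 0.00691, adjusted p = 0.571). DESeq2 called EXOSC5 lower over both shRNAs (adjusted p = 0.0352) and with sh2 (0.0357), but not with sh1 (0.276), and it called no other exosome gene in any comparison. Of all genes it called 0.876% higher and 0.535% lower over both shRNAs, 0.585% higher and 0.22% lower with sh1, 0.799% higher and 0.482% lower with sh2, and 0.228% higher and 0.197% lower in sh1 against sh2. Within experiments, the EXOSC5 level was 0.372 of Con_sh in sh1 and 0.238 in sh2 in experiment 1, and 0.612 and 0.522 in experiment 2. In bulk RNA, fewer cells that express a gene and less RNA per cell cannot be told apart.

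The log2 fold change over both shRNAs was below 0 in all 10 genes, with a median of -0.25, against 51.2% of all genes and a median of -0.01. In 4 of them, EXOSC4, EXOSC5, EXOSC8 and EXOSC9, all knockdown libraries lay below both controls, where 9.47% of all genes did, and in 0 all lay above, where 10.0% of all genes did. EXOSC4 had 11.3 and 14.7 CPM in sh1, 11.5 and 16.0 in sh2, and 19.6 and 17.9 in Con_sh (log2 fold change -0.48, SE 0.21, edgeR adjusted p = 0.602). EXOSC9 had 139 and 166 CPM in sh1, 120 and 158 in sh2, and 171 and 195 in Con_sh (log2 fold change -0.33, SE 0.163, edgeR adjusted p = 0.628). EXOSC1 was at 44.7 and 56.2 CPM in sh1, 54.9 and 62.7 in sh2, and 73.1 and 62.4 in Con_sh, with overlapping groups. EXOSC7 had 95.5 and 105 CPM in sh1, 60.2 and 92.4 in sh2, and 93.0 and 129 in Con_sh, which also overlapped.

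EXOSC2 had 68.7 and 78.3 CPM in sh1, 72.1 and 76.5 in sh2, and 77.5 and 90.3 in Con_sh, with overlapping groups (log2 fold change -0.18, SE 0.136, edgeR adjusted p = 0.735). With all called introns left out of the sums it was -0.09 (SE 0.131, edgeR adjusted p = 0.868). EXOSC3 (-0.16, SE 0.152), EXOSC8 (-0.11, SE 0.123), EXOSC10 (-0.08, SE 0.119) and DIS3 (-0.03, SE 0.135) had log2 fold changes nearer to 0, and none passed the edgeR test (adjusted p from 0.796 to 0.963). Between the shRNAs, the log2 difference of sh1 and sh2 ranged from -0.22 (SE 0.185) in EXOSC1 to 0.40 (SE 0.253) in EXOSC7, with 0 genes called by edgeR or by DESeq2 and 0 at an unadjusted p under 0.05.

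**Figure D4:**
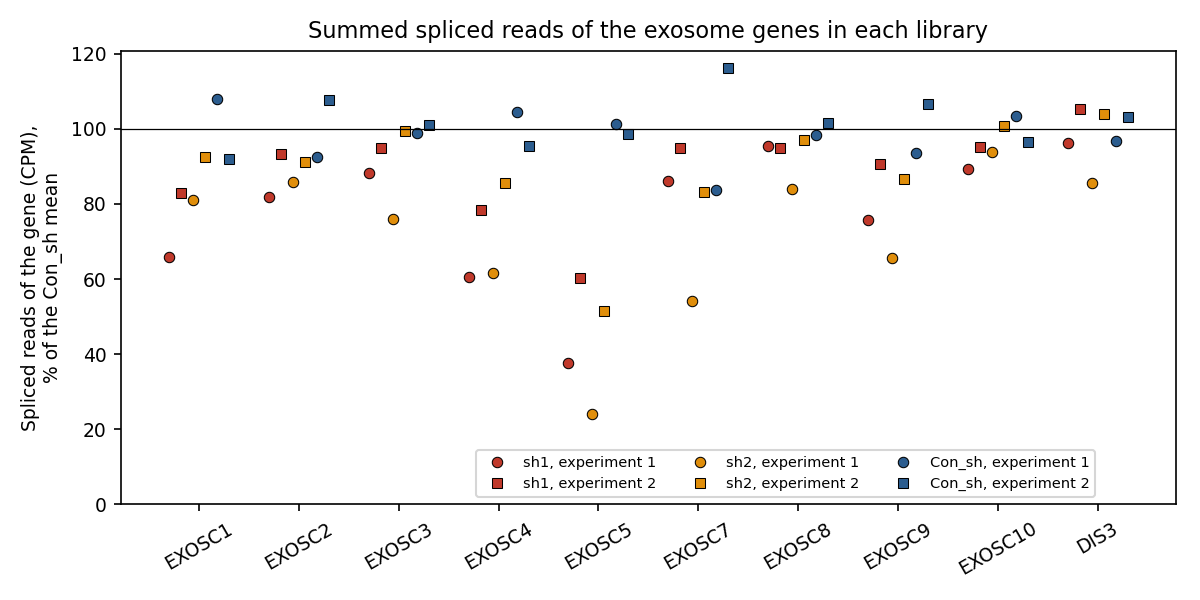
Summed spliced reads of each exosome gene (CPM) in each library as a percentage of the Con_sh mean, with circles for experiment 1 and squares for experiment 2. EXOSC5 is the lowest gene, at 49.1% in sh1 and 37.8% in sh2 on average.

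Skipped exons were read from introns that contain shorter ones. An intron that spans a listed exon was found in 10 cases in 6 genes, and in all 10 the share of spliced reads that leave the exon out overlapped between the 4 knockdown libraries and the controls. Single shRNAs did stand apart in some cases, which were not tested. A 90 nt exon of EXOSC2, 130698162 to 130698251, was left out by 42.8% and 47.3% of these reads in sh1, 41.2% and 41.5% in sh2, and 41.65% and 43.4% in Con_sh, with sh2 lowest. A 75 nt exon of EXOSC1, 97443237 to 97443311, was left out by 47.1% and 49.1% in sh1, 45.1% and 46.3% in sh2, and 49.8% and 46.9% in Con_sh, again with sh2 lowest. In EXOSC5 a 114 nt exon, 41392867 to 41392980, was left out by 25.03% and 19.7% in sh1, 31.9% and 22.2% in sh2, and 19.1% and 20.4% in Con_sh, with both sh2 libraries above both controls. A 51 nt exon of EXOSC9, 121816144 to 121816194, was left out by 90.2% to 91.8% in the knockdowns and by 90.2% to 91.6% in Con_sh.

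In 18 genes that work with the exosome (helicases, adaptors, poly(A) polymerases and the DIS3 relatives DIS3L and DIS3L2), 294 introns were tested. Over both shRNAs 49.0% of them had a log2 fold change above 0, with a median of -0.02. For all tested introns these values were 55.5% and 0.08. Of the 294, 1 was called more and 1 less retained, where 0.33% and 0.0209% of all tested introns were. The more retained one lay in ZFC3H1, which connects the nuclear exosome to polyadenylated RNA. At chromosome 12, 71657302 to 71663012, it was at 36.9% and 13.3% in sh1, 26.7% and 16.6% in sh2, and 4.81% and 3.13% in Con_sh (log2 fold change 2.79, SE 0.541, edgeR adjusted p = 1.37e-04). The less retained one lay in SKIC2, the helicase of the cytoplasmic Ski complex, at chromosome 6, 31969421 to 31969514. It read 0% and 0% in sh1, 0.309% and 0% in sh2, and 8.14% and 0.367% in Con_sh, so its value rests on replicate 1 of Con_sh. None of the 18 gene sums passed the edgeR test, as 0.0% of all genes did, and 7 of the 18 were below 0, where 51.2% of all genes were. The lowest unadjusted p (0.0196) belonged to ZCCHC8, a subunit of the nuclear exosome targeting complex, with 120.0 and 66.0 CPM in sh1, 98.9 and 57.7 in sh2, and 33.7 and 49.5 in Con_sh (log2 fold change 1.04, SE 0.34, edgeR adjusted p = 0.571).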

How the data were processed

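The authors deposited, per the file headers, 1 table per library with read counts for the 2 ends of each intron and for its splicing, a covered fraction and a retention percent (MSI), which the deposited counts gave back with a largest deviation of 2.8e-14. Per the labels' protocols RNA was polyA-selected and prepared with a NEBNext Ultra kit, while the sources used here name neither aligner nor counter. The submitters' processing notes name hg19, yet the positions lay in GRCh38.p14 gene intervals of a RefSeq table, which named 93.5% of introns and gave gene names here. For 2 of the 10 genes the strand was that of their introns. A spliced read also counts for introns inside its gap (60 of 60 comparisons in these genes), and reads of overlapping or antisense genes cannot be told apart. No genome sequence was used, so the type of an intron was not determined.

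Introns with a mean of at least 20 reads were tested with edgeR 4.0.16 (quasi-likelihood, library as a factor, boundary against spliced reads, 3 residual degrees of freedom, Benjamini-Hochberg threshold 0.05). The spread was taken from the trend over introns, without a value for each intron. Gene sums took the spliced counts of introns without mutual overlap, shortest first, without 4431 introns whose counts repeated those of another gene's intron within 500000 nt (mean squared difference over sum under 0.08, mean of at least 10 reads; 0 in the exosome genes). Sums were scaled with TMM and tested with edgeR, with DESeq2 1.42.0 as an alternative. Same-numbered libraries deviated together from their group means (correlations 0.296 to 0.483 for sums, 0.149 to 0.26 for introns), so the experiment numbers pair the libraries by this check of the data. SE is the log2 fold change over the root of the F statistic. Both procedures were run on simulated data in which libraries were drawn independently with a fixed spread. Pairing by experiment, as seen here, was not simulated, so these runs cannot show how the procedures behave under it. Members and lists were chosen with earlier results of these data known. Named were all 10 genes, their called introns, the most retained intron and that of lowest p in each gene, the 5 introns most like the first of EXOSC2, and the called and lowest-p cofactors; further introns of these genes were chosen after their values were seen. Alternatives changed the read minimum, coverage, boundary used, tool, scaling, introns summed, block and single libraries.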

Additional observations from a re-analysis of the deposited data

How the results depend on the processing

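The count of more retained exosome introns over both shRNAs (3) was 1 with introns covered to at least 0.95, 5 with the replicate block, 1 to 5 without single libraries, and 0 with the smaller, the lower-coordinate or the higher-coordinate boundary count doubled. Doubling enlarges the variance of the counts by construction, and with it 78, 0 and 1 introns of the whole table were more retained. The EXOSC1 intron was also not called by DESeq2, with at least 50 reads, without a read minimum or with either boundary alone. The same 3 introns were thus not all called in those settings. For sh1 (3) the count was 1 by DESeq2, with at least 50 reads and with either boundary alone, 0 with coverage of at least 0.95 and with each doubled count, and 0 to 4 without single libraries. For sh2 (2) it was 0 by DESeq2, with that coverage and with each doubled count, 1 with either boundary alone, 3 with the replicate block and 0 to 2 without single libraries. Using 1 boundary alone was chosen after seeing the data. DESeq2 called 1 exosome gene lower over both shRNAs and with sh2, where edgeR called 0. The block changed no further call of a named intron or gene than those of EXOSC5 and EXOSC9.

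Direction over both shRNAs turned, on the log2 scale, for EXOSC1 97436552 to 97438669 (-0.075 with the smaller and -0.074 with the lower-coordinate boundary doubled, -0.0891 with the lower-coordinate one alone, -0.24 to 0.53 without single libraries) and for EXOSC4 (-0.0492 with the smaller and -0.0474 with the higher-coordinate boundary doubled, -0.0338 with the higher-coordinate one alone, -0.25 to 0.36 without single libraries). It also turned for EXOSC9 121816195 to 121816368 (-0.0279 with the higher-coordinate boundary, doubled or alone), EXOSC10 11076949 to 11077364 (-0.0833 with the smaller and -0.0832 with the higher-coordinate boundary doubled, -0.0816 with the higher-coordinate one alone, -0.35 to 0.496 without single libraries) and the DIS3 sum (-0.11 to 0.0339 without single libraries). None of these was called, and the cause was not tested. The 3 called introns stayed above 0 in every alternative run. With 2 libraries a group, small changes were not detectable.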
